A study of Mus musculus with 6 samples.

Results

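Glutathione S-transferases are enzymes that join the tripeptide glutathione to reactive, fat-soluble compounds, which can then be exported from the cell and excreted. They fall into classes by sequence, and the 9 genes described here belong to the cytosolic alpha (Gsta2, Gsta3 and Gsta4), mu (Gstm1 and Gstm3), theta (Gstt1 and Gstt2), omega (Gsto1) and pi (Gstp1) classes. They were chosen by name, as the members of the family on a list drawn up for this purpose, and make up 9 of the 22481 gene symbols of the expression table. All 9 passed the filter on low counts.

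In the liver these enzymes are among the abundant soluble proteins of the hepatocyte. They handle drugs, plant compounds, and the aldehydes and peroxides that form when lipids oxidise. Many of their genes are targets of NRF2, a transcription factor that binds antioxidant response elements, and of the drug-sensing nuclear receptors CAR and PXR, and several differ between male and female mice.

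The libraries came from livers of male C57BL/6J mice, an inbred laboratory strain, aged 10 weeks. The fed group (3 libraries) ate ad libitum, and the fasted group (3 libraries) had no food for 16 h. Total RNA was sequenced after removal of ribosomal RNA. Whether the libraries of a group came from separate mice is not in the labels, and p-values then cover only the spread between libraries, which may be technical. Values are given in the order of libraries 1, 2 and 3 of a group.

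Counts were 12289647, 14771815 and 13043276 in fed libraries 1 to 3 and 11158000, 11639386 and 11556723 in fasted libraries 1 to 3, and 3 counts correspond to 0.186 to 0.291 CPM, counts scaled to a common library total. The liver label was checked on hepatocyte genes: Serpina1c, a secreted protease inhibitor, stood at 1623 to 1649.6 CPM in the fed and 1534 to 1737 CPM in the fasted libraries. Other listed hepatocyte genes varied more. Ttr stood at 4255, 3752 and 2003 CPM in the fed libraries and Cps1 at 2731, 2171 and 1063 CPM. In the fasted libraries Ttr was at 2710 to 3255 CPM and Cps1 at 4758 to 6913 CPM. Apoa1 and Apob did not show this fall over fed libraries 1 to 3. The hepatocyte markers in the table, 6 of the 7 listed, summed to 69439, 19353 and 48874 CPM in the fed and 97123, 88794 and 79830.4 CPM in the fasted libraries, with Alb listed at 0 in fed library 2, which is doubtful. Summed markers of Kupffer cells were 331 to 494 CPM over the 6 libraries, and those of T or B cells at most 1.04 CPM. The fed libraries differed widely from each other. The summed level of 11 acute phase genes, which hepatocytes raise in inflammation, was 21127, 103981 and 172042 CPM in fed libraries 1, 2 and 3 and 84729.8, 82631 and 37073 CPM in the fasted libraries, and none of the 11 passed the test between the groups. Summed markers of the bile duct cell (5 genes) were 34.2, 129 and 542 CPM in the fed libraries, mostly Spp1, and 13.7 to 30.1 CPM in the fasted libraries, while Krt19, its defining keratin, was at most 0.84 CPM in any library. Summed neutrophil markers (4 genes) were 6.56, 140.3 and 85.3 CPM in the fed libraries and 21.1 to 80.6 CPM in the fasted libraries. In these bulk samples, fewer cells of a type and less RNA per cell cannot be told apart.

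Of the 9 members, 2 rose in the fasted livers, Gstt2 and Gsto1, none fell, and 7 did not pass the test (edgeR quasi-likelihood test, Benjamini-Hochberg adjusted p under 0.05 over 11633 genes). Over all genes tested 1.41% rose, 1.11% fell and 2.52% changed in either direction, 164 and 129 genes. Gstt2 and Gsto1 were also the only members whose fed and fasted CPM did not overlap, which held for 29.0% of all genes and, with the fasted libraries higher, for 15.3%. The median log2 fold change of the members was -0.32, against -0.02 over all genes, with 5 of the 9 estimates below 0. That median is the estimate of Gstp1, which turned to 0.12 without fed library 1. The estimate of Gsta3, also below 0, was 0.72 without that library and 0.16 with limma on log2(FPKM + 1). Those of Gsta2 and Gstm1, above 0, turned below it without fed library 3. Gsta4, Gstm3 and Gstt1 stayed below 0 in all 16 alternatives. The sign of the median thus depended on fed library 1 and on the scale. The split of calls between higher and lower depended on the scale: 56.0% of the called genes were higher in the main test and 45.0% with limma on log2(FPKM + 1). The count of members depended on the test and on single libraries. DESeq2 called 3 of the 9, adding Gstm3, against 9.60% of all genes. Robust empirical Bayes in edgeR called 1 (Gsto1), against 2.68%, and limma on log2(FPKM + 1) called 0, against 1.76%. Leaving out fed library 1, 2 or 3 left 2, 0 and 4 of the 9 called, against 4.21%, 0.111% and 6.34% of all genes. Leaving out fasted library 1, 2 or 3 left 0 called each time, against 0.276%, 0.0252% and 0.251%.

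The members varied mostly among the fed libraries. All 9 members were highest in fed library 1 and lowest in fed library 3, an order that 25.0% of all genes tested showed, and all 9 lay more than 2-fold apart within the fed group, against 22.7% of all genes. The median SD of log2 CPM over the members was 1.52 in the fed group, against 0.269 over all genes. In the fasted group it was 0.213, against 0.214 over all genes. For 6 of the 9 members all 3 fasted values fell inside the fed range, against 19.1% of all genes. The exceptions were Gstt2 and Gsto1, above that range, and Gstt1, whose fasted library 2 lay below it. The acute phase sum and the bile duct marker sum were instead lowest in fed library 1 and highest in fed library 3. So was the share of all counts taken by the 10 most abundant genes, at 18.2%, 22.9% and 31.4% in the fed libraries and 22.7%, 21.9% and 17.3% in the fasted libraries. Summed markers of pericentral hepatocytes (8 genes), the cells around the central vein where much of drug metabolism takes place, were at 5278, 3727 and 2705 CPM in the fed libraries, in the order of the members, and at 10295, 12164 and 15653 CPM in the fasted libraries. These sums are mostly Cyp2e1, at 8250, 10689 and 12918 CPM in the fasted libraries. Cyp2e1 was the 1 gene of the 8 that passed the test (log2 fold change 2.12, edgeR adjusted p = 0.0351). Other genes of the list went both ways. The estimates of Cyp1a2 (log2 fold change -1.34), Lgr5 (-0.98) and Glul (-0.11) were below 0, and those of Oat, Slc1a2, Axin2 and Tbx3 above 0. Cyp1a2 was at 647, 344 and 105 CPM in the fed and 126, 118 and 187 CPM in the fasted libraries. The mean log2 CPM of the 8 genes was 6.85, 6.83 and 7.21 in the fasted libraries and 6.62 and 5.91 in fed libraries 2 and 3, while fed library 1 lay between fasted libraries 1 and 3, so that the groups overlapped. Summed markers of periportal hepatocytes (6 genes) showed the same order of the fed libraries, at 4402, 3875 and 2890.4 CPM. They stood at 7518, 7041 and 8855 CPM in the fasted libraries, and none of the 6 passed the test. Within this list Sds (135, 170 and 232 CPM) and Arg1 (1469, 1574 and 1774 CPM) had the opposite order in the fed libraries. Hal was highest in fed library 2, and Cyp2f2, Gls2 and Ass1 had the order of the sum. The estimate of Cyp2f2 was below 0 (log2 fold change -0.48), while those of the other periportal genes were above 0. The part of these measures in the order of the members was not tested.

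**Figure D1:**
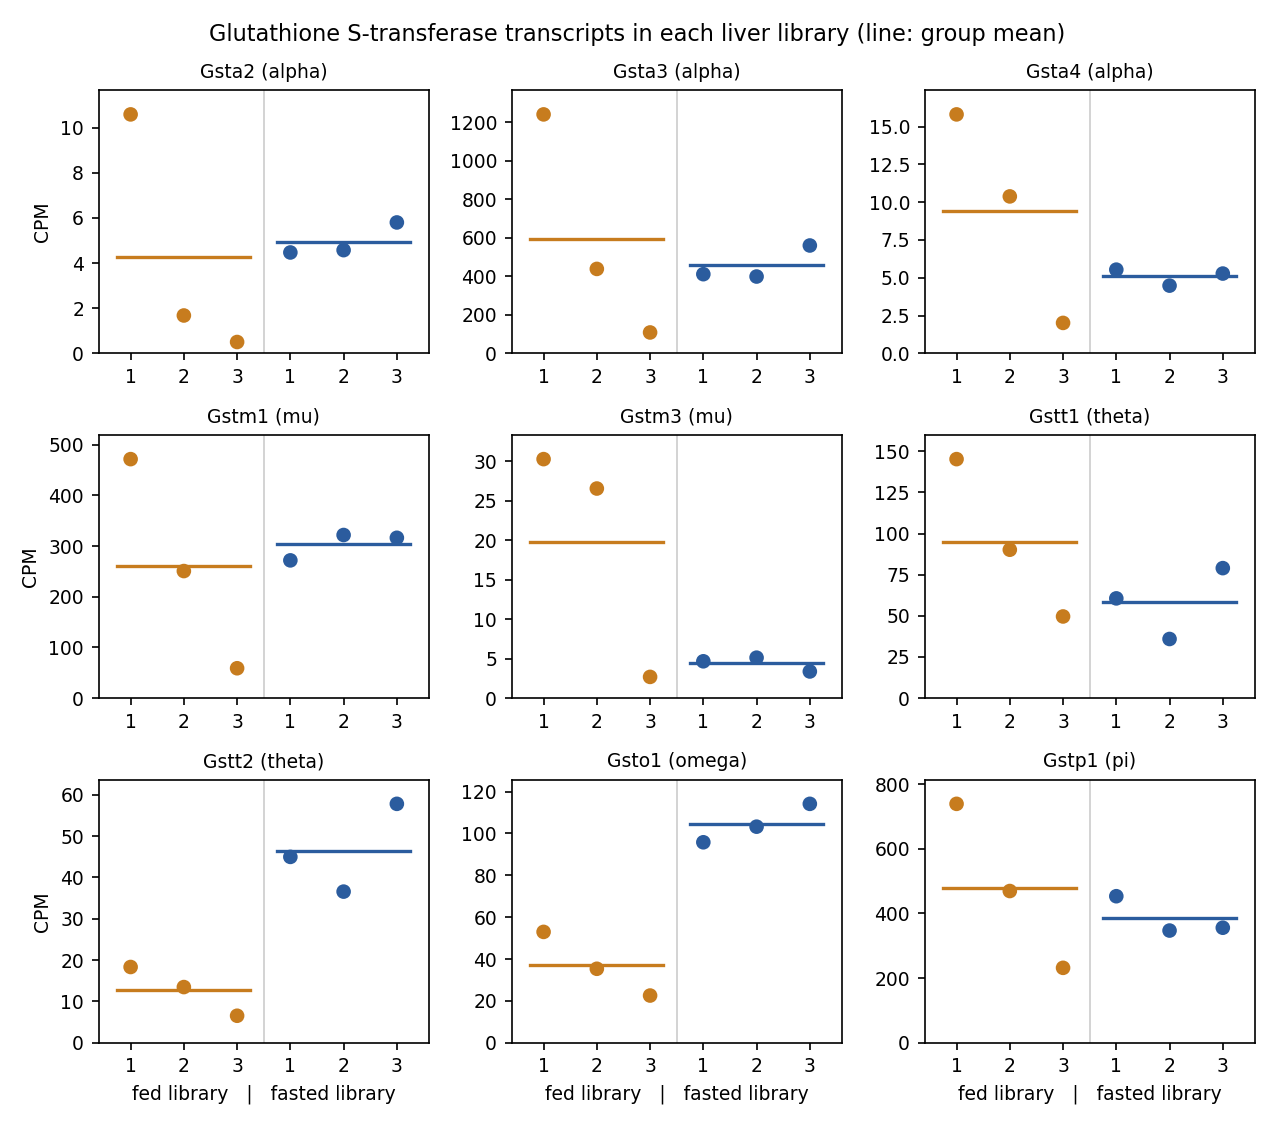
CPM of each member (vertical axis, starting at 0, on its own scale) in the 3 fed and 3 fasted libraries, with a line at each group mean. Fed library 1 is the highest and fed library 3 the lowest of the fed libraries in each of the 9 panels, and the groups separate for Gstt2 and Gsto1.

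Promoter sequences are printed for 4 members: Gsto1, 1 of the pair that rose; Gstm3, which had the lowest fold change estimate; and Gsta3 and Gstp1, the members with the highest levels. Each is the 250 bases before the start of the gene in RefSeq on GRCm38.p6, read 5′ to 3′ along the gene's own strand, in lower case with the letters of 3 searched motifs in capitals. The motifs were the antioxidant response element core (TGACNNNGC), the GC box (GGGCGG) and the TATA box (TATAAA), searched on both strands, and no base of a member lay in more than 1 of them. The 4 windows are chr19:47854723-47854972 on the plus strand for Gsto1, chr3:107969175-107969424 on the minus strand for Gstm3, chr1:21240335-21240584 on the plus strand for Gsta3 and chr19:4037913-4038162 on the minus strand for Gstp1.
Gsto1: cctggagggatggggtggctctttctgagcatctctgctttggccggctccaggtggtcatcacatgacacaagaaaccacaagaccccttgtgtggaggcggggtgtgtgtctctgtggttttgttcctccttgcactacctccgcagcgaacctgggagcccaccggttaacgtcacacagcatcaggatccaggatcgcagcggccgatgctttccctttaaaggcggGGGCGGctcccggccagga
Gstm3: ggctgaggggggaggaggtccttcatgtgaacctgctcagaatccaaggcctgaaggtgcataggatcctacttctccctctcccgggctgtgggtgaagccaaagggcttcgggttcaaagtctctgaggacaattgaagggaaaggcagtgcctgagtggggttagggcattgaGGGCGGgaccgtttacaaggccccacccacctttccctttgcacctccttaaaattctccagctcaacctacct
Gsta3: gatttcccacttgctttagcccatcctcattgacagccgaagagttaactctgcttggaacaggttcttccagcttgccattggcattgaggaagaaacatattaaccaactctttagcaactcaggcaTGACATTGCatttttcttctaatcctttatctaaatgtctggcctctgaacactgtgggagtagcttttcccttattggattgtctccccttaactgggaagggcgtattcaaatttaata
Gstp1: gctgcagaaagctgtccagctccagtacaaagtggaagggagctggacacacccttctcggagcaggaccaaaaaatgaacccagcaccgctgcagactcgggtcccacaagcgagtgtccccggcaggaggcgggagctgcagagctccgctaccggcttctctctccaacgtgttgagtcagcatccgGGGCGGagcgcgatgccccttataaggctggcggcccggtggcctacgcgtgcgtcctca

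In Gsta3 the capitals are the antioxidant response element core, whose first base lies 121 bases before the start, and in the other 3 they are a GC box, 19 bases before the start in Gsto1, 74 in Gstm3 and 60 in Gstp1. Of the 9 members 7 matched an entry by symbol, with 8 windows in all since Gstm1 has a pair of starts. The antioxidant response element core, searched only as TGACNNNGC, was in 1 of the 8 windows, against 10.2% of the 32851 promoters of the table. Variants of these letters were not searched. The GC box was in 3 of the 8, against 32.7%, and the TATA box in 2 of the 8, those of Gsta2 and of 1 start of Gstm1, against 12.4%. These are matches of letters and were not tested as binding sites.

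On GRCm38 (GENCODE M21), Gsta2 (ENSMUSG00000057933) is at chr9:78331018-78355788 on the minus strand, close to Gsta4 (ENSMUSG00000032348) at chr9:78182774-78209349 on the plus strand, while Gsta3 (ENSMUSG00000025934) is at chr1:21240589-21265661 on the plus strand, where it overlaps the antisense gene Gm28836. Gstm1 (ENSMUSG00000058135) is at chr3:108012255-108017973 and Gstm3 (ENSMUSG00000004038) at chr3:107963696-107969283, both on the minus strand. Gstt1 (ENSMUSG00000001663) at chr10:75783813-75798584 and Gstt2 (ENSMUSG00000033318) at chr10:75831114-75837424 lie close together on the minus strand. Gsto1 (ENSMUSG00000025068), at chr19:47854970-47864790 on the plus strand, lies within Cfap43 on the opposite strand, which had 0 or 1 counts in each library. The locus that the deposited table gives to Gsto1 is also shared with Gsto2, which had 0 to 3 counts in each library, and Itprip, which had 22 to 78. Gstp1 (ENSMUSG00000060803) is at chr19:4035407-4037985 on the minus strand. Paralogs make some counts uncertain. Of the 75-base windows of the longest coding transcript, 57.7% of those of Gstp1 also occur in another gene (Gstp2 or Gstp-ps), as do 46.9% for Gsta2 (Gsta1 and others), 21.6% for Gstm3 and 14.8% for Gstm1 (each other and Gm8834 and Gstm2-ps1 among them), and 0 for the other members.

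The alpha class held the widest range of levels. Gsta3, which in mice detoxifies the epoxide of aflatoxin, stood at 1239.7, 438 and 109 CPM in the fed and at 411, 399 and 559.7 CPM in the fasted libraries. Its fed libraries thus spanned 11.4-fold and held all 3 fasted values between them, and its log2 fold change was -0.38 (SE 0.72, edgeR adjusted p = 0.792). Without fed library 1 the estimate turned to 0.72, and with limma on log2(FPKM + 1) it was 0.16.

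Gsta2, an alpha enzyme that also reduces lipid peroxides, was low: 10.6, 1.68 and 0.504 CPM in the fed libraries and 4.47, 4.57 and 5.80 CPM in the fasted libraries. In fed library 3 that is 6 counts, and fed library 1 was 21-fold higher, the widest gap of the 9. The log2 fold change of 0.21 (SE 0.88, edgeR adjusted p = 0.913) turned to -0.20 without fed library 2 and to -0.30 without fed library 3, and was 2.11 without fed library 1 (adjusted p = 0.0680).

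Gsta4 conjugates 4-hydroxynonenal, an aldehyde from oxidised lipids. It stood at 15.8, 10.4 and 2.02 CPM in the fed libraries and at 5.54, 4.48 and 5.28 CPM in the fasted libraries, which all fell between fed libraries 2 and 3. It had a log2 fold change of -0.89 (SE 0.61, edgeR adjusted p = 0.442), which became -0.32 without fed library 1 (adjusted p = 0.787) and -1.35 without fed library 3 (adjusted p = 0.0261).

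Of the mu class, Gstm1 is the abundant hepatic enzyme. It was at 472, 251 and 58.9 CPM in the fed libraries and at 272, 322 and 316 CPM in the fasted libraries, inside the fed range. Its log2 fold change was 0.22 (SE 0.61, edgeR adjusted p = 0.867) and became -0.25 without fed library 3.

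Gstm3, a mu enzyme of mice that is induced by activators of NRF2, was at 30.3, 26.5 and 2.69 CPM in the fed libraries and at 4.66, 5.12 and 3.37 CPM in the fasted libraries. Fed libraries 1 and 2 lay above all 3 fasted libraries and fed library 3 below them. The log2 fold change of -2.18 (SE 0.75) was the lowest of the 9 and did not pass the test (edgeR adjusted p = 0.157). It passed without fed library 3 (-2.69, adjusted p = 0.00264) and with DESeq2 on all libraries (adjusted p = 0.0197). The locus that the deposited table gives to Gstm3 is shared with Gstm6, which was at 63.7, 28.9 and 11.3 CPM in the fed and 15.6, 13.7 and 18.3 CPM in the fasted libraries.

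The theta class held the highest fold change of the 9. Gstt2, known for cleaving sulfate esters, was at 18.3, 13.5 and 6.55 CPM in the fed libraries and at 45.0, 36.6 and 57.8 CPM in the fasted libraries. Every fasted library was above every fed library, and the mean went from 12.8 ± 5.93 CPM (SD, n = 3) to 46.5 ± 10.7 CPM (SD, n = 3). The log2 fold change was 1.85 (SE 0.36, edgeR adjusted p = 0.0479), a 3.62-fold rise. The call was lost without fed library 2 (adjusted p = 0.168) and without fasted library 1, 2 or 3 (adjusted p = 0.131, 0.149 and 0.170, edgeR), and the estimate stayed between 1.55 and 2.18 over the 16 alternatives, with adjusted p between 8.41e-05 and 0.170. With limma on log2(FPKM + 1) the adjusted p was 0.0781.

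Gstt1, which lies close to it and acts on small halogenated compounds, was at 145, 90.2 and 49.6 CPM in the fed libraries and at 60.6, 35.9 and 79.0 CPM in the fasted libraries. The groups overlapped, and it was the only member whose fasted libraries lay more than 2-fold apart, as did those of 14.1% of all genes. Its log2 fold change was -0.70 (SE 0.42, edgeR adjusted p = 0.376), and it was -0.28 without fed library 1 and -0.44 without fasted library 2.

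Gsto1, of the omega class, has a cysteine at its active site and reduces dehydroascorbate and methylated arsenic in place of the usual conjugation. It was at 53.0, 35.4 and 22.6 CPM in the fed libraries and at 95.8, 103 and 114 CPM in the fasted libraries. The groups did not overlap, and the mean went from 37.0 ± 15.3 CPM (SD, n = 3) to 104 ± 9.23 CPM (SD, n = 3). The log2 fold change was 1.50 (SE 0.29, edgeR adjusted p = 0.0494), a 2.82-fold rise. Like that of Gstt2, the call was lost without fed library 2 (adjusted p = 0.184) and without fasted library 1, 2 or 3 (adjusted p = 0.127, 0.177 and 0.172, edgeR), while the estimate stayed between 1.24 and 1.82, with adjusted p between 0.000157 and 0.184. With limma on log2(FPKM + 1) the adjusted p was 0.0878.

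Gstp1, the pi enzyme, is abundant in male mouse liver. It was at 739, 469 and 232 CPM in the fed libraries and at 453, 347 and 356 CPM in the fasted libraries, which lay inside the fed range. Its log2 fold change was -0.32 (SE 0.39, edgeR adjusted p = 0.677) and turned to 0.12 without fed library 1.

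**Figure D2:**
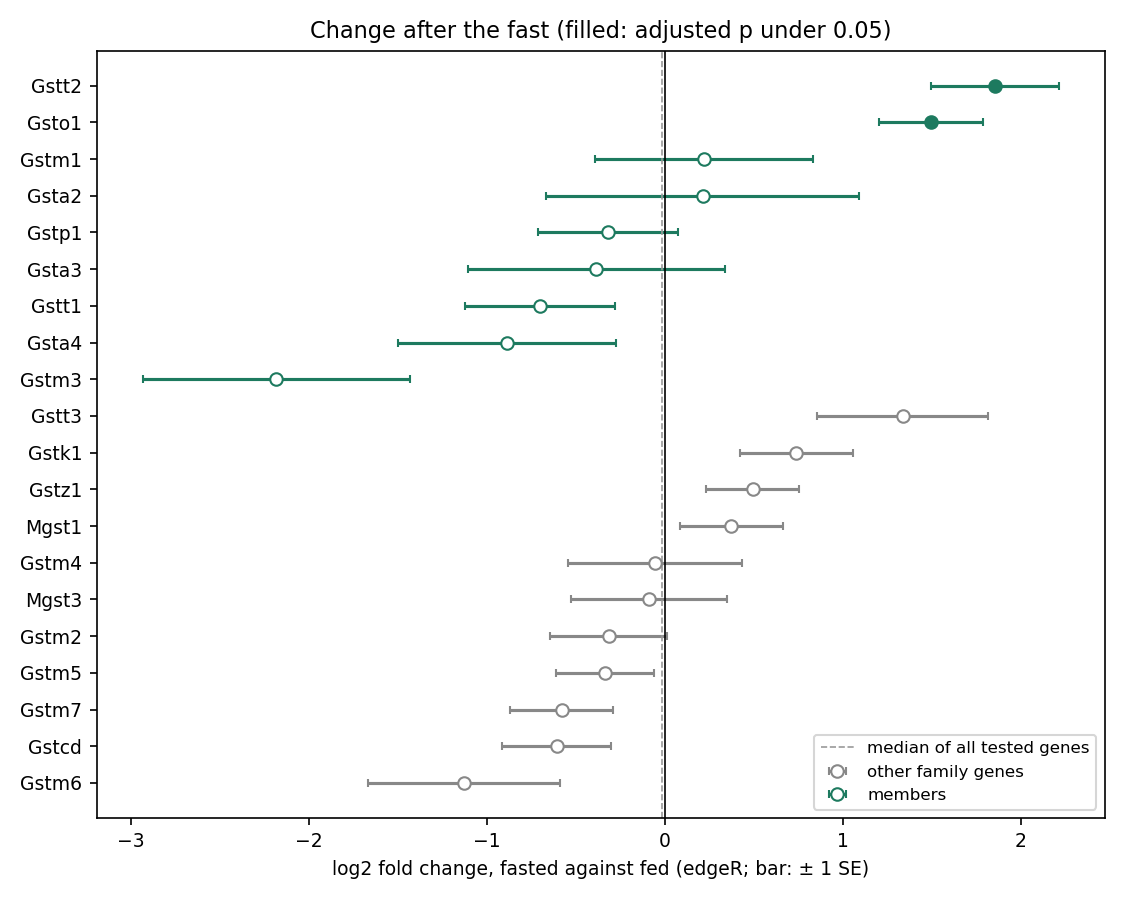
Log2 fold change, fasted against fed, of the 9 members and of 11 other tested genes of the superfamily (horizontal axis, edgeR estimate with a bar of 1 SE on each side; filled points have an adjusted p under 0.05). Gstt2 at 1.85 and Gsto1 at 1.50 are the filled points, and Gstm3 at -2.18 lies farthest to the left.

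**Figure D3:**
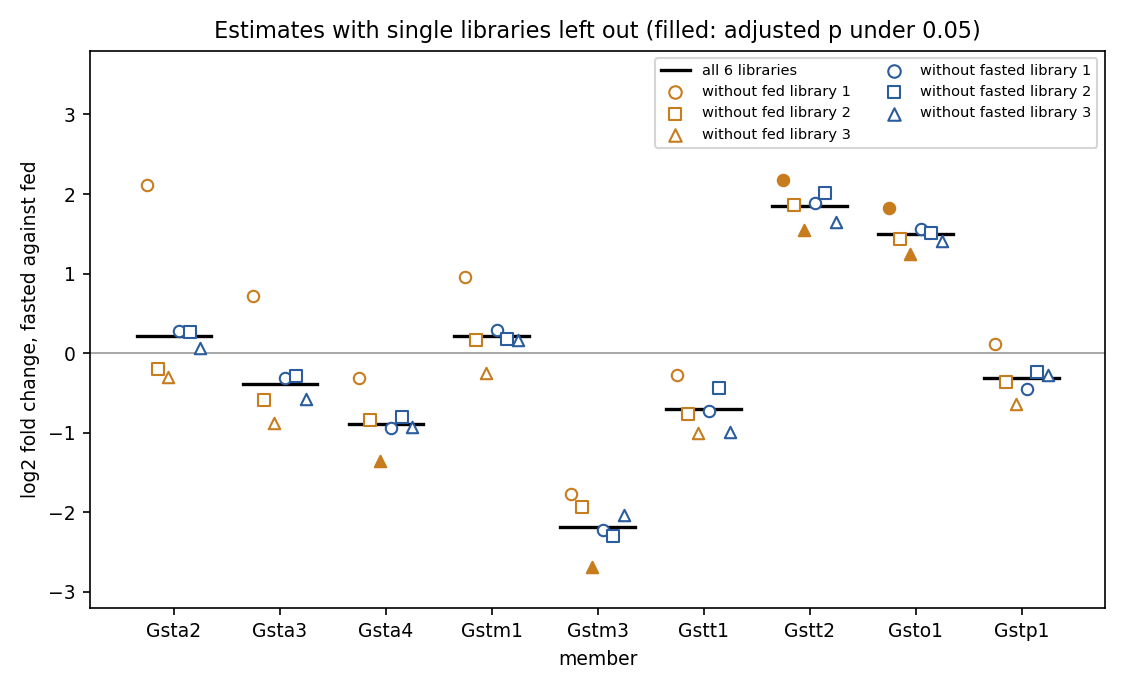
Log2 fold change of each member with 1 library left out at a time (points) beside the estimate from all 6 libraries (black line); filled points have an adjusted p under 0.05. Gsta2 moves from -0.30 to 2.11, while Gstt2 and Gsto1 stay above 1 in each case.

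Levels of different genes were compared in FPKM, which divides by a length for each gene. The sources used here do not give that length, on which the order between genes depends. By mean FPKM over the 6 libraries the order was Gstp1, Gsta3, Gstm1, Gstt1, Gsto1, Gstt2, Gstm3, Gsta4 and Gsta2. In the fed group each neighbour in the group's own order overlapped the next. In the fasted group the order was Gstp1, Gsta3, Gstm1, Gsto1, Gstt1, Gstt2, Gsta2, Gsta4 and Gstm3, and 4 steps separated without overlap: Gsta3 above Gstm1, Gstm1 above Gsto1, Gstt2 above Gsta2, and Gsta4 above Gstm3. Gstm3 thus stood 6th of the 9 in the fed group and 9th in the fasted group, and Gstt2 8th and 6th.

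Summed by class, the alpha members stood at 1361, 457 and 99.0 FPKM in the fed libraries and at 389, 386 and 574 FPKM in the fasted libraries. The pi member stood at 1273, 772 and 345 FPKM and then at 669.6, 529 and 562 FPKM. These sums are mostly Gsta3 and Gstp1, and in both classes the fasted values lay inside the fed range. The mu sum was 448, 237 and 47.8 FPKM in the fed libraries and 211, 257 and 262 FPKM in the fasted libraries. The theta sum was 181, 109 and 53.2 FPKM in the fed libraries and 91.7, 62.4 and 126 FPKM in the fasted libraries, where Gstt2 was a larger share. Gsto1 alone, the omega class, went from 34.7 ± 16.5 to 90.9 ± 11.6 FPKM (SD, n = 3 each). The 9 members together were at 1829 ± 1389 FPKM in the fed and 1464 ± 153 FPKM in the fasted group (SD, n = 3 each).

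The mix of classes also differed among the fed libraries. Gstp1 was 38.4%, 48.0% and 61.1% of the members' summed FPKM in fed libraries 1, 2 and 3 and 46.5%, 40.0% and 34.6% in the fasted libraries. The alpha share was 41.1%, 28.4% and 17.6% in the fed libraries and 27.0%, 29.1% and 35.3% in the fasted libraries. In fed library 3, where the total was lowest, the pi share was thus highest and the alpha share lowest of the 6. Gsto1 was 1.57%, 2.06% and 3.37% of the sum in the fed libraries and 5.56%, 6.74% and 6.34% in the fasted libraries, without overlap.

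**Figure D4:**
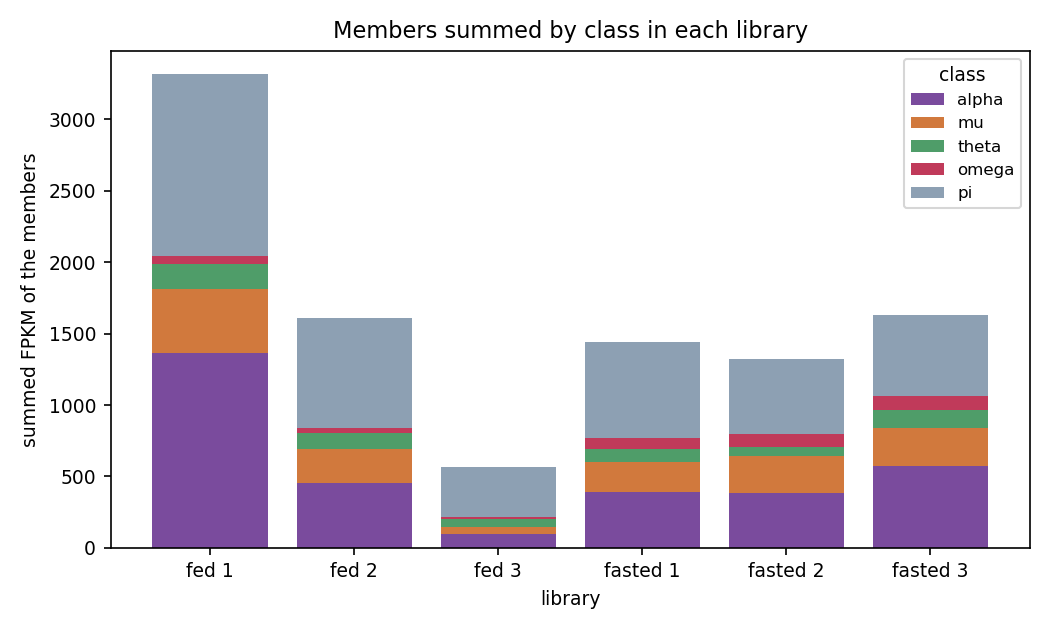
Summed FPKM of the members in each library, stacked by class (vertical axis, starting at 0). The fed libraries lie between 564 and 3315 FPKM, and the fasted libraries lie between 1323 and 1627 FPKM.

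Ratios between members of a class within a library are free of the factor that scales the whole library, and 5 such pairs were computed, after the values had been seen. The ratio of Gstt2 to Gstt1 was 0.0910, 0.108 and 0.0953 in the fed libraries and 0.528, 0.733 and 0.528 in the fasted libraries. The fed libraries, 3.41-fold apart in the FPKM of Gstt1, were thus close together in this ratio. The mean ratio was 6.08-fold higher in the fasted group (0.0981 ± 0.00884 against 0.596 ± 0.119, SD, n = 3 each). The exact two-sided permutation test gave p = 0.1, the smallest that 3 against 3 libraries allow. The ratio of Gstm3 to Gstm1 was 0.0691, 0.114 and 0.0484 in the fed libraries and 0.0184, 0.0171 and 0.0114 in the fasted libraries. This ratio was lower in every fasted library than in any fed library, also in fed library 3, by 4.93-fold between the means (exact permutation p = 0.1). It rests on 32 counts of Gstm3 in fed library 3 and 39 to 56 in the fasted libraries. Gstm3 and Gstm1 also share sequence, and how reads common to both were counted is not known.

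In the alpha class the ratio of Gsta2 to Gsta3 was 0.0114, 0.00512 and 0.00646 in the fed libraries and 0.0145, 0.0158 and 0.0137 in the fasted libraries. The ratio of Gsta2 to Gsta4 was 0.766, 0.182 and 0.286 and then 0.919, 1.20 and 1.26. Neither overlapped between the groups (exact permutation p = 0.1 each), with the fasted libraries higher, and both rest on 6 counts of Gsta2 in fed library 3. The ratio of Gsta4 to Gsta3 did overlap (exact permutation p = 0.2). Adjusted over the 5 pairs, the p-values were 0.125 for the 4 pairs without overlap and 0.2 for the other.

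**Figure D5:**
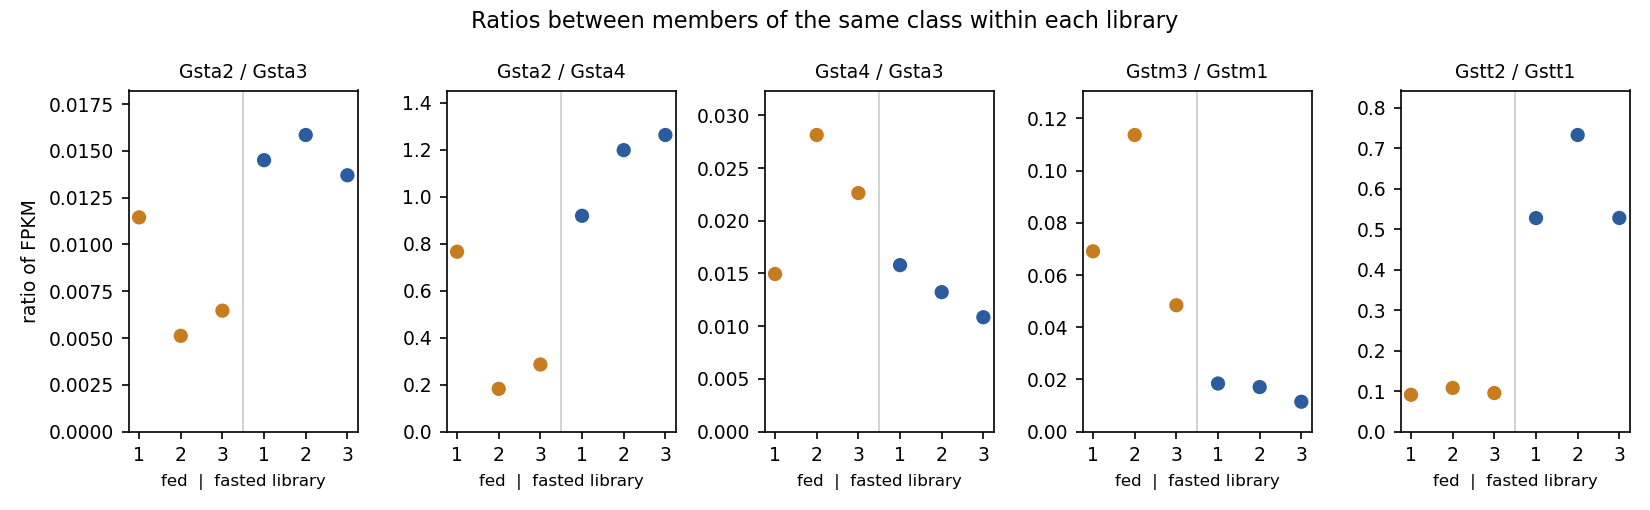
Ratio of FPKM between 2 members of a class in each library (vertical axes start at 0, each panel on its own scale). Gstt2 over Gstt1 lies near 0.0981 in the fed and 0.596 in the fasted libraries, Gstm3 over Gstm1 is lower in the fasted libraries, and Gsta4 over Gsta3 overlaps.

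For the member with the highest mean FPKM and the called members, the genes with the most similar pattern were found by Pearson correlation of log2 CPM over the 6 libraries, among 7850 genes with a mean count of at least 100. For Gstp1 these were Paqr7 (r = 0.995) and Klhl22 (r = 0.988). For Gstt2 they were Asgr1, a subunit of the hepatocyte receptor for glycoproteins that have lost sialic acid (r = 0.9995), and Rdh16, a retinol dehydrogenase (r = 0.998). For Gsto1 they were Slc27a2, which takes up and activates fatty acids (r = 0.999), and Dpyd, the first enzyme of pyrimidine breakdown (r = 0.998). Slc27a2 stood at 911, 558 and 329 CPM in the fed and 1665, 1852 and 2143 CPM in the fasted libraries, with the same order of the 6 libraries as Gsto1. Asgr1 stood at 347, 322 and 263 CPM in the fed and 453, 422 and 487 CPM in the fasted libraries. Its change was smaller than that of Gstt2, since a correlation does not measure the size of a change. These correlations describe 6 libraries that share their depth and their groups, and carry no test.

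The rest of the glutathione system is given from lists of its genes. Of 19 listed other genes of the transferase superfamily 17 were in the table and 11 were tested. None of the 11 passed the test in either direction (median log2 fold change -0.09), and 8 of the 11 were highest in fed library 1 and lowest in fed library 3, against 25.0% of all genes tested. In the lists that follow, this order was shown by 7 of 16 tested genes of glutathione synthesis, reduction and breakdown, 2 of 4 peroxidases, 3 of 7 export genes, 6 of 17 genes of the NRF2 axis and 3 of 9 other regulators. Mgst1, the microsomal transferase of the endoplasmic reticulum, had the highest mean count and stood at 3729, 2303 and 2196 CPM in the fed and 3714, 3401 and 3543 CPM in the fasted libraries (log2 fold change 0.37, SE 0.29, edgeR adjusted p = 0.493). Gstz1, the zeta enzyme of tyrosine breakdown, was at 653, 472 and 357 CPM and then at 707, 615 and 767 CPM (0.49, adjusted p = 0.318), and it overlaps Pomt2 on the opposite strand. Gstt3, another theta gene named here after its values were seen, was at 19.4, 15.7 and 4.87 CPM in the fed and 23.1, 30.9 and 47.2 CPM in the fasted libraries. It was the single gene of the 11 whose groups did not overlap, against 29.0% of all genes and 15.3% with the fasted libraries higher. It did not pass the test (log2 fold change 1.34, SE 0.48, edgeR adjusted p = 0.169).

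Of 16 tested genes of glutathione synthesis, reduction and breakdown, 2 rose and none fell, against 1.41% and 1.11% of all genes. Oplah, which returns 5-oxoproline to glutamate in the glutathione cycle, went from 65.5 ± 1.49 to 117 ± 12.6 CPM (SD, n = 3 each; log2 fold change 0.84, SE 0.14, edgeR adjusted p = 0.0342). Glrx, glutaredoxin, which reduces disulfides between proteins and glutathione, went from 19.2 ± 3.02 to 46.4 ± 8.94 CPM (SD, n = 3 each; 1.27, SE 0.19, edgeR adjusted p = 0.0246). Unlike the transferases, Oplah varied little among the fed libraries, at 67.1, 64.1 and 65.2 CPM. It overlaps Smpd5 and Exosc4 on the opposite strand. Of the 4 tested glutathione peroxidases none passed. Gpx1, the main soluble peroxidase of the liver, stood at 1442, 1273 and 716 CPM in the fed and 1405, 1315 and 1360.1 CPM in the fasted libraries (log2 fold change 0.25, edgeR adjusted p = 0.658), and Gpx4, which reduces lipid peroxides in membranes, at 133, 127 and 114 and then at 164, 153 and 172 CPM (0.39, adjusted p = 0.184).

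Of 7 tested genes of conjugate export 1 rose and none fell, against 1.41% and 1.11% of all genes. Abcc3, which moves glucuronide and glutathione conjugates from the hepatocyte into blood, went from 44.9 ± 10.3 to 155 ± 26.9 CPM (SD, n = 3 each), a 3.45-fold rise (log2 fold change 1.78, SE 0.23, edgeR adjusted p = 0.0171). Of 17 tested genes of the NRF2 axis none passed in either direction (median log2 fold change 0.09). Prdx1, a peroxiredoxin, was at 1225, 945 and 809.7 CPM in the fed and 1138, 1002 and 1036 CPM in the fasted libraries (log2 fold change 0.09, edgeR adjusted p = 0.847, and -0.029 with limma on log2(FPKM + 1)). Ephx1, the microsomal epoxide hydrolase, was at 180.4, 114 and 48.5 CPM in the fed libraries, highest in library 1 and lowest in library 3 like the transferases, and between 235 and 263 CPM in the fasted libraries (1.12, adjusted p = 0.179), and it overlaps the pseudogene Gm36961 on the same strand.

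Of 9 tested other regulators of transferase genes 1 rose and none fell, against 1.41% and 1.11% of all genes. Nr1i3, the nuclear receptor CAR, went from 55.2 ± 14.9 to 184 ± 47.9 CPM (SD, n = 3 each), a 3.33-fold rise (log2 fold change 1.74, SE 0.27, edgeR adjusted p = 0.0276), and it overlaps Tomm40l on the opposite strand. The calls of Oplah, Glrx, Abcc3 and Nr1i3 were lost without fed library 2 and without any 1 of the fasted libraries, with adjusted p of up to 0.161, 0.120, 0.0993 and 0.114 over the alternatives.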

How the data were processed

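Total RNA of 6 mouse liver libraries (3 fed, 3 fasted for 16 h) was depleted of ribosomal RNA and made into stranded libraries, per the labels' protocols. CASAVA 1.8 and TopHat2 are named, with the human build hg19, in the submitters' processing notes, although the 22564 lines of the table carry mouse Ensembl identifiers. The sources used here do not give the counting program, its annotation, its strand setting or how it treated reads shared by paralogs.

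The table deposited by the authors gives an FPKM and an estimated count per gene and library, per the file headers. The deposited counts are whole multiples, within 0.02, of a step for each library in 90.5% to 91.1% of values above 0, so they had been scaled. They were divided by that step, rounded to whole numbers and summed by symbol. A length column of the table equals the span of the locus, and the sources used here do not give the length behind the FPKM. Identifiers were matched to GENCODE M21.

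Groups were compared with edgeR 4.0.16 in R 4.3.3 (quasi-likelihood test, TMM factors, filterByExpr with a minimum count of 10, no covariate, two-sided, Benjamini-Hochberg over 11633 genes, threshold 0.05). CPM use the TMM-scaled totals. The common biological coefficient of variation came to 27.9%. The SE of a log2 fold change is its size over the square root of F. The code was tested on simulated data. There edgeR recovered 4.48% of 1.5-fold, 7.46% of 2-fold and 83.3% of 4-fold changes, so most 2-fold changes would be missed. Of its 65 calls 2 were false, against 33 of the 125 calls of DESeq2. The simulation gave each gene the same dispersion in both groups. The members had a median SD of log2 CPM of 1.52 in the fed and 0.213 in the fasted group, so these rates may not hold for them. Alternatives were DESeq2 1.42.0, limma 3.58.1 on log2(FPKM + 1), a scale that understates changes of low genes, with and without a minimum mean of 1 FPKM and with a pseudocount of 0.1, other factors and filters, a replicate block, and leaving out each library. No 2 libraries agreed within sampling noise. Shared windows were counted on the longest coding transcript of each member.

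The members and gene lists were chosen with earlier results of these data known. Named are all 9 members, each listed gene that passed, and for lists without a pass the 2 genes with the highest mean count. For the leading member and the called members, the 2 genes of highest correlation were named.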

Additional observations from a re-analysis of the deposited data

How the results depend on the processing

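Against 293 genes and 2 members, DESeq2 called 1116 and 3, limma on log2(FPKM + 1) 180 and 0, with a pseudocount of 0.1 160 and 0, with no filter 40 and 0, and robust empirical Bayes 1 member. Leaving out each library in turn gave 3 to 754 genes and 0 to 4 members. The calls of Gstt2 and Gsto1 are close to the threshold, and their estimates were above 0 in all 16 alternatives.

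With the replicate number as a block, 29 genes and 0 members were called, and the log2 fold change of Gsta3 turned to 0.16. Libraries with the same number deviated from their group means with correlations of -0.07, 0.18 and -0.13. Across different numbers the correlations ran from -0.26 to 0.29. The labels state no pairing, and with 3 libraries in a group these values cannot decide whether the numbers pair the libraries. Not every library correlated best with its own number.

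With 1 library left out, log2 fold changes ranged from -0.30 to 2.11 for Gsta2, -0.87 to 0.72 for Gsta3, -1.35 to -0.32 for Gsta4, -0.25 to 0.95 for Gstm1, -0.64 to 0.12 for Gstp1, -1.004 to -0.28 for Gstt1 and -0.032 to 0.25 for Prdx1. The log2 ratio of the class means ranged from -1.02 to 0.69 for alpha, -0.49 to 0.77 for mu, -0.63 to 0.21 for theta and -0.80 to 0.073 for pi. With limma on FPKM, Gsta3 was at 0.16 and Prdx1 at -0.029 under all 3 settings. The cause was not tested. Of the 9 members, 3, 6 and 7 kept their rank of the mean order in fed libraries 1, 2 and 3 alone, and 4, 5 and 5 in the fasted libraries. Gsta2 had 6 counts in fed library 3, so depth limits its precision there.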
